A study of Mus musculus with 8 samples.

Results

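The Slc25 genes encode the mitochondrial carriers, and 47 of the 21887 protein-coding genes on 21 chromosomes were taken as members because their symbol is Slc25a followed by a number. Binding of phosphorylated CREB1 at these genes was read from ChIP-seq peak lists of mouse skeletal muscle. The tumor-bearing animals were male Balb/c mice injected subcutaneously at 2 months of age with C26 colon adenocarcinoma cells, a model of cancer cachexia (C26, 2 libraries), and the others were control mice of the same series (CTRL, 2 libraries). The protocols also describe rolipram, a phosphodiesterase 4 inhibitor, or vehicle given to tumor-bearing mice, and do not say which the C26 mice of these libraries received. The sample labels name the gastrocnemius and the extraction protocol the quadriceps. The precipitating antibody is given in the protocol as CREB or phospho-CREB1, and in the sample titles as phospho-CREB1. No label says whether the libraries of a group came from separate mice, so their spread may be technical. By its title, the series asks how a loss of cAMP-CREB1 signaling bears on mitochondria in the wasting muscle of these mice.

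Mitochondrial carriers are small proteins of the inner mitochondrial membrane that exchange nucleotides, phosphate, organic acids, amino acids and cofactors between the cytosol and the matrix. In muscle they hand ATP out to the contractile apparatus, bring ADP and phosphate in, and carry reducing equivalents and fatty acid fuel inward. CREB1 is a transcription factor that is phosphorylated after cAMP signals and binds the cAMP response element (CRE), whose full form is TGACGTCA and whose shorter form is TGACG. Both forms can lie on either strand.

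The 4 lists held 7482 peaks (C26 replicate 1), 4051 peaks (C26 replicate 2), 10835 peaks (CTRL replicate 1) and 14975 peaks (CTRL replicate 2), each called against an input library of its own group. Read depth is unknown, so the lack of a peak does not show that a gene was unbound. A gene-end peak had its summit within 1000 bp of either end of the gene span (GRCm38). Fold enrichment over input is the authors' value for each peak. Strength is given as a percentile of −log10 q among the peaks of the same list, with 100 for the strongest, and is not compared between lists. Of 6 skeletal muscle marker genes, 1 carried gene-end peaks in both C26 libraries (against 13.0% of all genes) and 4 in both CTRL libraries (against 32.2%), and Myh1 had none. None of the 3 endothelial, 3 leukocyte and 3 fibroblast markers did so in either group, but CTRL replicate 2 had a peak at the endothelial Kdr (4.36-fold) and the fibroblast Col1a1 (4.89-fold). These few genes do not settle which cells the peaks came from.

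A gene-end peak was found at 24 carriers in C26 replicate 1 (51.1%, against 26.1% of all protein-coding genes) and at 13 in C26 replicate 2 (27.7%, against 14.0%). In the control lists the number was 27 in CTRL replicate 1 (57.4%, against 33.9%) and 31 in CTRL replicate 2 (66.0%, against 40.1%). Both C26 libraries had a peak at 13 carriers (27.7%, 95% Wilson interval 16.9 to 41.8, against 13.0% of all genes). Both CTRL libraries had one at 26 (55.3%, 41.2 to 68.6, against 32.2%). In all 4 libraries a peak was present at 12 carriers (25.5%, 15.3 to 39.5, against 12.7%), and 13 carriers had none in any library (27.7%, against 57.7%). A further 9 had peaks in both CTRL libraries and in 1 C26 library (19.1%, against 12.0%), 5 in 1 CTRL library and no C26 library (against 7.80%), and 2 in a C26 library and no CTRL library (against 0.452%). The share of carriers with a peak was therefore above the share of all genes in each of the 4 lists. Expression was not analysed here, so these shares do not compare carriers with genes active in muscle.

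**Figure D1:**
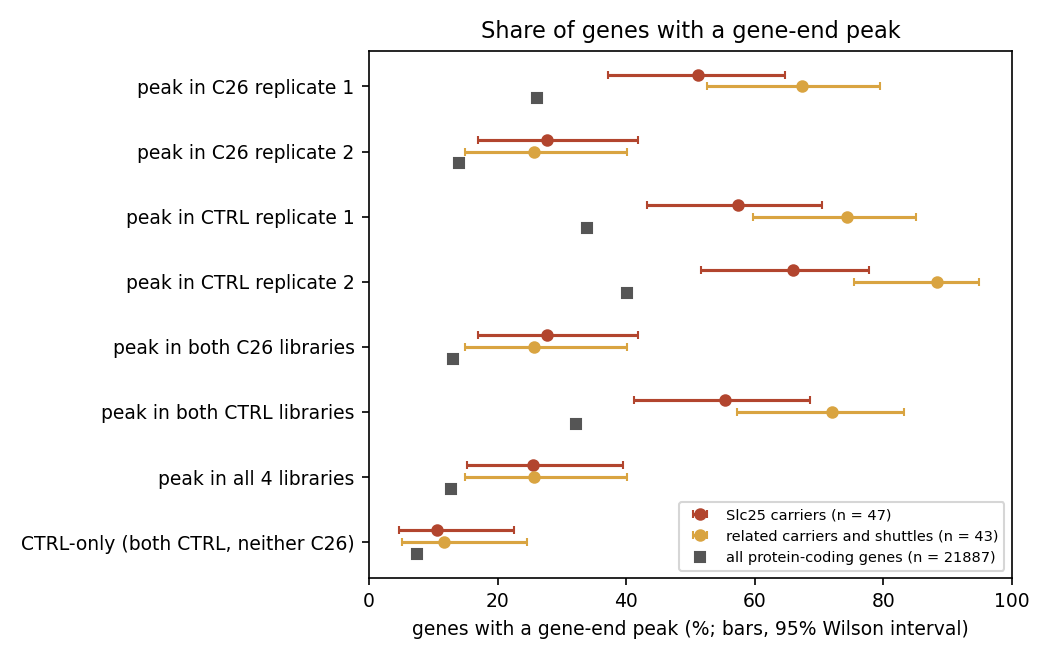
Percentage of genes with a gene-end peak (x axis) in each library or combination of libraries (y axis), for the 47 Slc25 carriers and 43 related genes with 95% Wilson intervals and for all 21887 protein-coding genes. The carriers lie to the right of all genes in every row. Their share runs from 10.6% for CTRL-only genes (against 7.40%) to 66.0% in CTRL replicate 2 (against 40.1%). In the CTRL-only row the carriers' interval, 4.63 to 22.6, holds the share of all genes.

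The strongest carrier peaks lay at Slc25a16, Slc25a3 and Slc25a53. Slc25a16 encodes a carrier whose yeast counterpart is needed for coenzyme A in mitochondria. Its peak had 29.9- and 25.7-fold enrichment in C26 replicates 1 and 2, and 51.5- and 117-fold in CTRL replicates 1 and 2. It ranked 159 of 7482, 161 of 4051, 169 of 10835 and 112 of 14975 in the same order, which placed it in the strongest 5% of every list. Slc25a3, the phosphate carrier that supplies ATP synthase, had 10.8- and 20.4-fold in C26 replicates 1 and 2, and 44.8- and 56.6-fold in CTRL replicates 1 and 2, at percentiles of 93.0, 93.5, 97.2 and 98.1. Slc25a53, a carrier without an assigned substrate, had 24.1- and 16.7-fold in C26 replicates 1 and 2, and 37.7- and 42.8-fold in CTRL replicates 1 and 2, at percentiles of 93.9, 90.8, 95.4 and 96.6. These 3 genes were the only carriers above the 90th percentile in all 4 lists. Their peaks in CTRL replicate 2 lay on chromosome 10 at 62919946 to 62921377 (Slc25a16), chromosome 10 at 91123234 to 91124377 (Slc25a3) and chromosome X at 137037812 to 137038598 (Slc25a53).

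Promoter sequences show where the CRE letters lay beside these summits. The stretches shown are from carriers with a short CRE motif and a strong or shared peak, followed by the paralogs Slc25a12 and Slc25a13. They come from the RefSeq promoter table for GRCm38.p6 (the C57BL/6J reference, not Balb/c), read 5′ to 3′ along the gene's strand, and capitals mark TGACG or its complement CGTCA. Positions count from the annotated transcription start, with −1 as the base before it.
Slc25a16 (chr10:62920503-62920632, + strand): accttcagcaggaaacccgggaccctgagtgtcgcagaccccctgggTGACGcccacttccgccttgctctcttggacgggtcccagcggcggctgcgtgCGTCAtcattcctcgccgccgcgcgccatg
Slc25a3 (chr10:91123998-91124097, − strand): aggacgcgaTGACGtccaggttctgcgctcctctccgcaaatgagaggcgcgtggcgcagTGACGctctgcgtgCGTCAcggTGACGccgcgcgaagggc
Slc25a36 (chr9:97111152-97111251, − strand): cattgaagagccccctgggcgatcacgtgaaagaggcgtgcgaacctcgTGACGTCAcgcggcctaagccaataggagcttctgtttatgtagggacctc
Slc25a33 (chr4:149774257-149774356, − strand): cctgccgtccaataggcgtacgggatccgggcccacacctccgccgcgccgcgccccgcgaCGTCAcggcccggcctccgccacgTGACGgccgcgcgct
Slc25a28 (chr19:43674932-43675031, − strand): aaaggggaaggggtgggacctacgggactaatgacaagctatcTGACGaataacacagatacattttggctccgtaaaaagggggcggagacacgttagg
Slc25a25, internal start (chr2:32424167-32424266, − strand): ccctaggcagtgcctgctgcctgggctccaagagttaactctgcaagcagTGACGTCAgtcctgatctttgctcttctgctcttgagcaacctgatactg
Slc25a12 (chr2:71367756-71367815, − strand): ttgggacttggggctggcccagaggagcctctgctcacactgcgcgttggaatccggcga
Slc25a13 (chr6:6217174-6217233, − strand): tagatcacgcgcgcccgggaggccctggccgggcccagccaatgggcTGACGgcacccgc

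In Slc25a16 the motif nearest the start, at −30 to −26, lay 11, 4, 7 and 3 bp from the summits of C26 replicates 1 and 2 and CTRL replicates 1 and 2. Slc25a3 held 4 short motifs between −121 and −44, and the nearest lay 3, 9, 5 and 9 bp from the 4 summits in the same order. The full CRE of Slc25a36, at −161 to −154, lay 12, 82, 10 and 8 bp from the summits. The motifs of Slc25a33 lay 8, 3, 17 and 3 bp away, and that of Slc25a28 lay 70, 1, 114 and 13 bp away. Summit and motif thus lay within 25 bp of each other in all 4 libraries at Slc25a16, Slc25a3 and Slc25a33, in 3 at Slc25a36 and in 2 at Slc25a28. The same distances were not taken over all genes, so whether carriers differ in this was not tested. The other carriers with a motif and a gene-end peak in the same promoter window were Slc25a40 (68 bp in both CTRL libraries) and Slc25a1 (101 bp in CTRL replicate 2). Slc25a13, by contrast, had a short motif at −13 to −9 and no peak in any library, while Slc25a12 had a peak in all 4 and no motif in its window. The window ends 50 bases past the start, and the summits of Slc25a12 lay 26 to 105 bp past it.

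**Figure D2:**
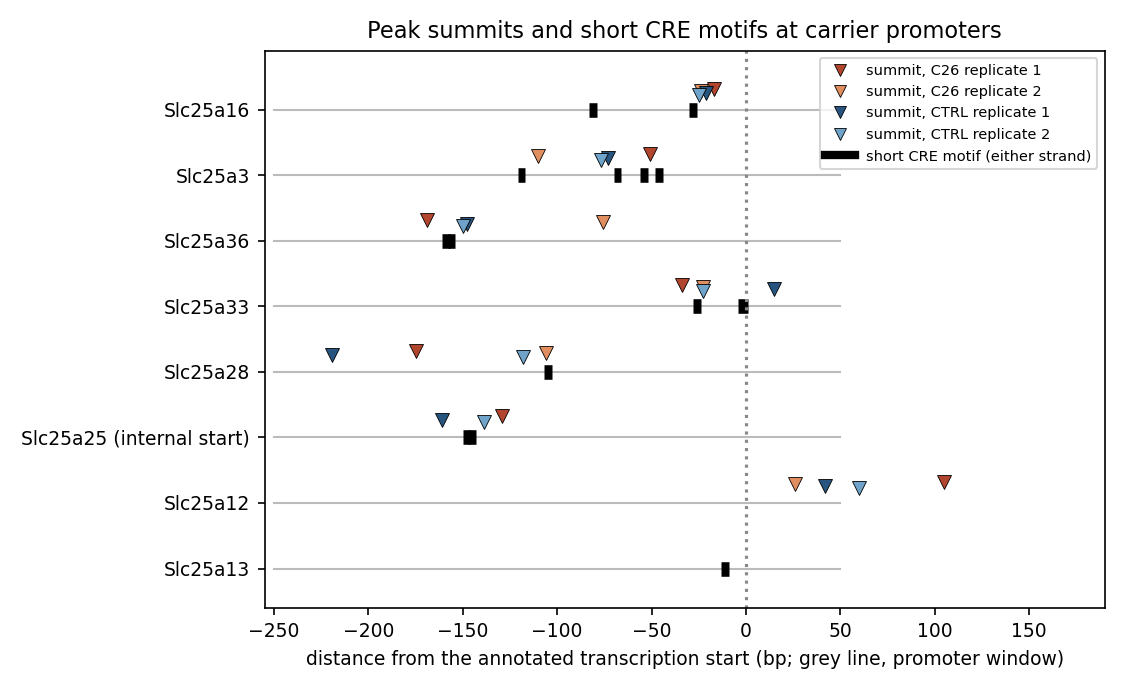
Distance from the annotated transcription start in bp (x axis) of peak summits (triangles, by library) and of the short CRE motif on either strand (black bars) at 8 carrier promoters. Grey lines are the promoter windows. At Slc25a16 all 4 summits lie 3 to 11 bp from a motif, while Slc25a12 has summits and no motif and Slc25a13 a motif and no summit.

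Promoter windows from 250 bases before to 50 after an annotated start were given for 36 of the 47 carriers, and a gene counted when any of its windows held the motif. TGACG on either strand was present in 12 of the 36 (33.3%, against 26.2% of 17492 protein-coding genes with a window), and the full TGACGTCA in 2 (5.56%, against 2.54%). Every full CRE also counts as a short motif on both strands. Among carriers with a peak in all 4 libraries the short motif was present in 6 of 11 (54.5%), against 1394 of 2311 genes with such peaks (60.3%), and among carriers without any peak in 3 of 11 (27.3%), against 16.0% of such genes. At Slc25a53 the 2 short motifs lay in the window of another annotated start, 44903 bp or more from the summits. The window beside its strong peak held no such motif, but that window ends 50 bases past the start. The summits lay 236 to 248 bp past the start, so the letters under them were not searched. Of other letters searched on both strands, CCAAT was found in 19 of 36 carriers (52.8%, against 42.3%), CCGGAA, a core of ETS factor sites, in 12 (33.3%, against 20.9%), and a form of the NRF1 site in 2 (5.56%, against 7.17%). A match describes letters in a window and is not a measured binding site. The windows of carriers with a peak in both CTRL libraries had a median of 24.0 CpG dinucleotides and those of carriers without a peak 13.0, against 24.0 and 5.00 for all genes of the same 2 kinds.

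Where strand was known, the strongest gene-end peak of a carrier lay at the 5′ end of the gene in every case. Carriers of unknown strand, among them Slc25a41 and Slc25a44, were left out, and the same count was not made over all genes. The numbers at the 5′ end were 18 of 18 carriers in C26 replicate 1 and 11 of 11 in C26 replicate 2. In CTRL replicates 1 and 2 they were 20 of 20 and 22 of 22. The median distance from the nearest annotated start was −86.5, −76.0, −58.5 and −90.0 bp in that order, with negative values upstream. Among the carriers with summits farther away were Slc25a5, whose summits lay 796 to 805 bp downstream of the start, Slc25a25, with summits 585 to 635 bp upstream, and Slc25a39, with summits at −1038 to −994 bp from the only start in the table and 120 to 164 bp from its gene end. CTRL replicate 2 had a second, weaker peak at Slc25a5 (8.57-fold), 68 bp upstream of the start.

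Among carriers of nucleotides and phosphate, 4 of 11 had a peak in both C26 libraries (against 13.0% of all genes) and 7 of 11 in both CTRL libraries (against 32.2%). Slc25a33 and Slc25a36, which carry pyrimidine nucleotides, had peaks in all 4. Slc25a33 had 14.0- and 8.65-fold enrichment in C26 replicates 1 and 2, and 10.8- and 24.5-fold in CTRL replicates 1 and 2. For Slc25a36 the values were 10.0- and 9.17-fold in C26 and 14.6- and 19.0-fold in CTRL replicates. The muscle ADP/ATP exchanger Slc25a4 (ANT1) had a weaker peak of 4.74-fold in C26 replicate 1, none in C26 replicate 2, and 6.81- and 14.2-fold in CTRL replicates 1 and 2, at percentiles of 50.6 in the C26 list and 61.8 and 82.3 in the CTRL lists. Its widely expressed paralog Slc25a5 (ANT2) showed the same presence, with 6.92-fold in C26 replicate 1 and 9.05- and 14.1-fold in CTRL replicates 1 and 2. The germ cell paralog Slc25a31 had no peak. Slc25a4 therefore had a gene-end peak in 3 of 4 libraries, without C26 replicate 2.

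The calcium-regulated ATP-Mg/phosphate carriers and their relative Slc25a41 differed in presence. Slc25a25 had 7.42-fold enrichment in C26 replicate 1, no gene-end peak in C26 replicate 2, and 6.98- and 13.9-fold in CTRL replicates 1 and 2. A separate peak lay at an internal annotated start of Slc25a25 (chromosome 2, 32423398 to 32424454 in the second CTRL list), with 6.96-fold in C26 replicate 1 and 10.7- and 11.5-fold in CTRL replicates 1 and 2, and none in C26 replicate 2. Its summits lay 18, 14 and 8 bp from the full CRE of that promoter, shown above. Slc25a23 had a peak in the same 3 libraries (4.94-fold in C26 replicate 1, 7.02- and 9.30-fold in CTRL), and Slc25a24 in CTRL replicate 1 alone (5.43-fold). Slc25a41 was the only carrier with a C26 peak and a peak in 1 CTRL library, with 10.3- and 6.41-fold in C26 replicates 1 and 2 and 24.5-fold in CTRL replicate 2. In CTRL replicate 1 the nearest summit was 1083 bp from the gene end (13.0-fold), just outside the window, while the CTRL replicate 2 summit was 906 bp from it, just inside. The summits at Slc25a41 also lay within 1000 bp of an end of Khsrp, a gene for an RNA-binding protein, so the peak cannot be given to Slc25a41 alone.

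Among the 9 cofactor carriers, 3 had a peak in both C26 libraries and 8 in both CTRL libraries, against 13.0% and 32.2% of all genes. Slc25a39, a glutathione carrier, had 8.29- and 11.0-fold enrichment in C26 replicates 1 and 2, and 24.8- and 17.7-fold in CTRL replicates 1 and 2. Its paralog Slc25a40 had no C26 peak and had 4.11- and 13.2-fold in CTRL replicates 1 and 2, at a summit near an end of Dbf4. Slc25a42, the coenzyme A carrier, had peaks in all 4 libraries (6.95- and 7.81-fold in C26, 5.25- and 23.3-fold in CTRL replicates). Slc25a26, which brings S-adenosylmethionine into mitochondria, had 5.22-fold in C26 replicate 1, none in C26 replicate 2, and 10.4- and 23.7-fold in CTRL replicates 1 and 2. The folate and FAD carrier Slc25a32 and the peroxisomal carrier Slc25a17 had CTRL peaks only, and the NAD carrier Slc25a51 a peak in CTRL replicate 2 alone (8.26-fold).

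The carriers of the malate-aspartate shuttle, which moves NADH equivalents into mitochondria, had peaks in all 4 libraries. Slc25a11, the oxoglutarate-malate exchanger, had 3.29- and 6.71-fold enrichment in C26 replicates 1 and 2, and 6.15- and 15.2-fold in CTRL replicates 1 and 2, at an end shared with Rnf167. Slc25a12 (aralar), the aspartate-glutamate exchanger of muscle, had 4.26- and 6.86-fold in C26 replicates 1 and 2, and 12.7- and 16.5-fold in CTRL replicates 1 and 2. Percentiles of Slc25a12 were 48.7 and 48.3 in the C26 lists and 82.4 and 88.9 in the CTRL lists, and those of Slc25a11 were 8.77 and 44.2 in the C26 lists and 51.3 and 82.5 in the CTRL lists. Citrin, the liver counterpart encoded by Slc25a13, had no peak. CTRL replicate 2 was the sole library with a peak at the citrate carrier Slc25a1 (7.39-fold) and the dicarboxylate carrier Slc25a10 (5.02-fold), and the oxoadipate carrier Slc25a21 had none.

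Of the 9 amino acid carriers, 3 had a peak in both C26 libraries (all genes, 13.0%) and 5 in both CTRL libraries (all genes, 32.2%). Slc25a44, which carries branched-chain amino acids, had 10.2- and 12.8-fold enrichment in C26 replicates 1 and 2, and 14.3- and 24.1-fold in CTRL replicates 1 and 2. That strongest peak lay at the end it shares with Pmf1, a kinetochore gene. A weaker summit at the opposite end of Slc25a44 was present in both C26 libraries (4.80- and 6.09-fold) and in CTRL replicate 2 (8.13-fold). The basic amino acid carrier Slc25a29 had peaks in all 4 libraries (4.03- and 6.57-fold in C26, 8.91- and 14.7-fold in CTRL replicates). Slc25a38, the glycine carrier needed for heme synthesis, had one in C26 replicate 1 (6.29-fold) and both CTRL libraries (11.2- and 6.50-fold). Slc25a22, a glutamate carrier, had weak CTRL peaks only, the ornithine carrier Slc25a15 a peak in CTRL replicate 2 alone (10.4-fold), and the ornithine carrier Slc25a2, Slc25a13 and the glutamate carrier Slc25a18 none.

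The 2 iron importers differed in presence. Slc25a28 (mitoferrin 2), the widely expressed form, had 10.7- and 7.49-fold enrichment in C26 replicates 1 and 2, and 11.3- and 15.1-fold in CTRL replicates 1 and 2. Slc25a37 (mitoferrin 1), the erythroid form, had no peak in any library. Slc25a20, the carnitine-acylcarnitine carrier that admits long-chain fatty acids for oxidation, also had none. Among the carriers related to uncoupling proteins, Slc25a27 had 5.31-fold in C26 replicate 1, none in C26 replicate 2, and 10.4- and 18.2-fold in CTRL replicates 1 and 2, at an end shared with Cyp39a1. Slc25a30 had a peak in C26 replicate 1 alone (4.49-fold, percentile 23.3) and Slc25a14 none. Slc25a46, an outer membrane protein that acts in mitochondrial dynamics, had a peak in C26 replicate 1 (4.43-fold) and both CTRL libraries (6.27- and 9.44-fold). Of the other carriers without a settled role, Slc25a34 had a peak in C26 replicate 1 alone (3.39-fold, percentile 6.23), Slc25a35 in both CTRL libraries, and Slc25a43, Slc25a45, Slc25a47 and Slc25a48 none. Slc25a54 had none either. For the 13 carriers without a gene-end peak, no summit of any list came closer than 5470 bp to a gene end, and none lay inside the gene.

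**Figure D3:**
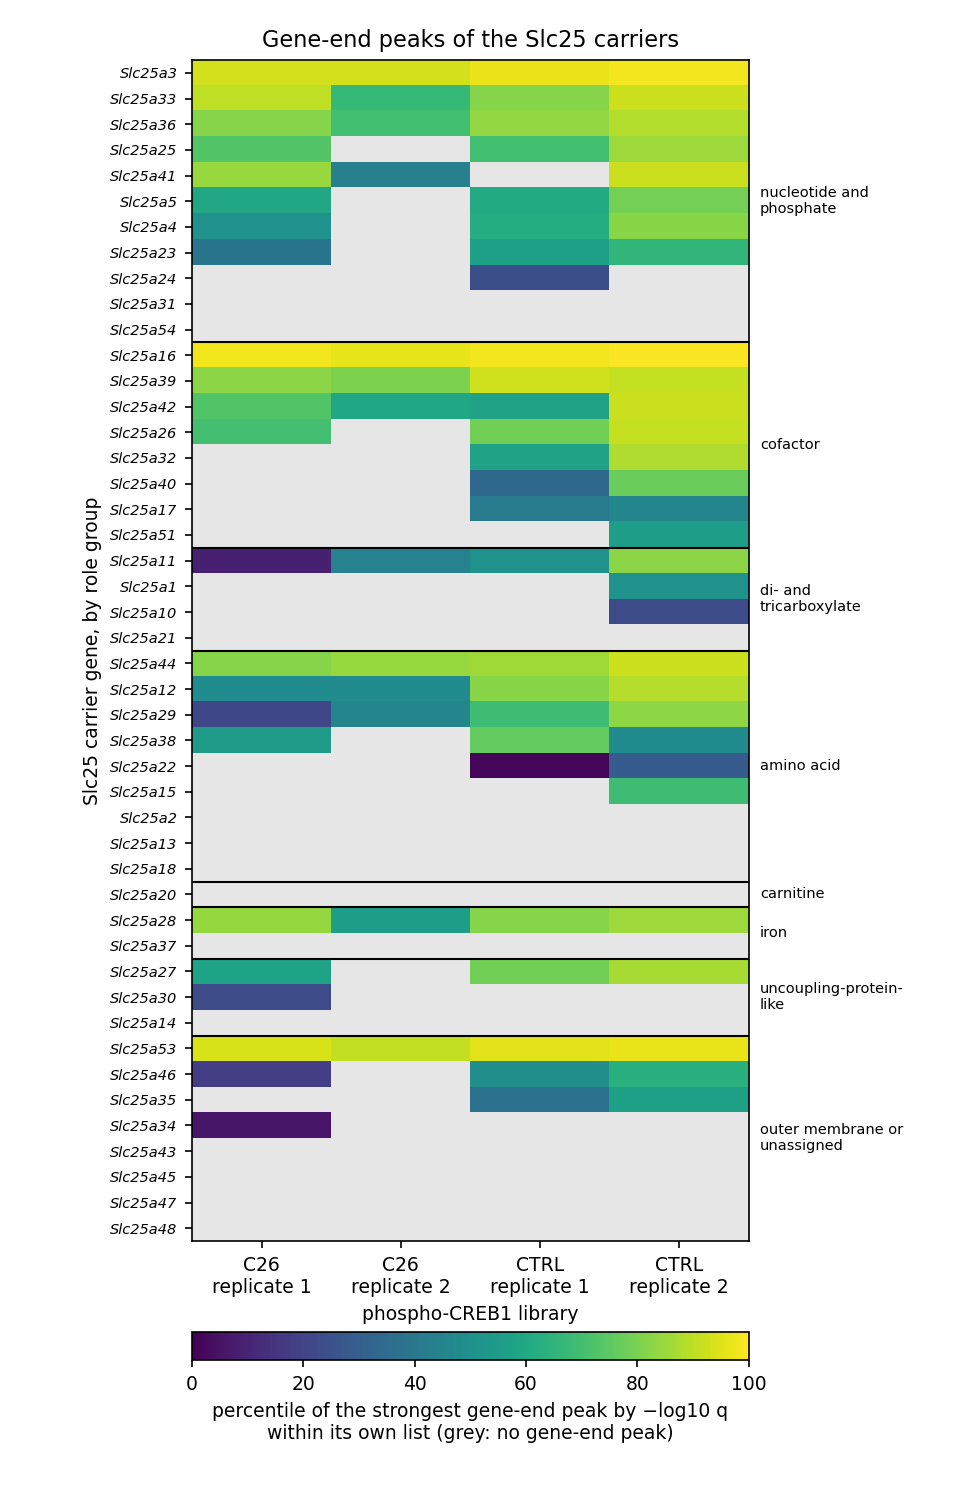
Percentile of the strongest gene-end peak among all peaks of that list (color, 0 to 100) for the carriers described in the text (y axis, by role group) in each library (x axis). Grey marks no gene-end peak. Slc25a16, Slc25a3 and Slc25a53 are above percentile 90 in all 4 columns, and 13 carriers are grey in all 4.

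Fewer carriers had a peak in either C26 library than in either CTRL library. The numbers were 24 and 13 in C26 replicates 1 and 2, with a mean of 18.5 ± 7.78 (SD, n = 2), and 27 and 31 in CTRL replicates 1 and 2, with a mean of 29.0 ± 2.83 (SD, n = 2). The groups did not overlap, and the shares of all genes with a peak did not either. Those shares were 26.1% and 14.0% in C26 replicates 1 and 2, and 33.9% and 40.1% in CTRL replicates 1 and 2. The difference of −10.5 carriers had an exact two-sided permutation p of 0.333, the smallest that 2 libraries against 2 allow. C26 replicate 1 came within 3 carriers of CTRL replicate 1, while the C26 libraries differed from each other by 11. With only the 4051 strongest peaks of each list kept, as many as the shortest list holds, the numbers were 18 and 13 in C26 replicates 1 and 2 (38.3% and 27.7%, against 16.9% and 14.0% of all genes) and 14 and 20 in CTRL replicates 1 and 2 (29.8% and 42.6%, against 17.3% and 18.0%). The groups then overlapped, with a difference of −1.5 carriers (exact permutation p = 0.667). The difference in carriers was thus smaller with lists of equal length. Trimming brings the counts of all genes closer together by itself, whatever made the C26 lists shorter. Why fewer carriers had a peak in C26 muscle was not tested.

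Of the 26 carriers with a peak in both CTRL libraries, 21 also had one in C26 replicate 1 (80.8%, 95% Wilson interval 62.1 to 91.5), against 74.9% of the 7037 genes that were occupied in both CTRL lists. In C26 replicate 2 the number was 12 (46.2%, 28.8 to 64.5), against 41.7%. All 12 carriers of C26 replicate 2 among the 26 were also among those of C26 replicate 1. CTRL-only carriers had a peak in both CTRL libraries and in neither C26 library. They numbered 5 of 47 (10.6%, 4.63 to 22.6, against 7.40% of all genes), or 19.2% of the 26 (8.51 to 37.9, against 23.0% of the 7037). No carrier had a peak in both C26 libraries and in neither CTRL library (0 of 47, Wilson upper limit 7.56%, against 0.0274% of all genes). These shares of other genes lay within the intervals around the carriers' values. The intervals cover counting error over few genes and not the spread between libraries. Whether carriers and other genes differed in what C26 libraries lacked was therefore not tested.

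The CTRL-only carriers were Slc25a32, Slc25a40, Slc25a35, Slc25a17 and Slc25a22. Slc25a32 had no C26 peak and had 5.42- and 17.6-fold enrichment in CTRL replicates 1 and 2, at percentiles of 57.8 and 87.9, with a summit within 1000 bp of an end of Dcaf13. Slc25a40 stood at percentiles of 33.5 and 77.3. Slc25a35 had 5.75- and 8.17-fold in CTRL replicates 1 and 2, at percentiles of 37.4 and 56.8. Slc25a17 had 5.68- and 6.69-fold in CTRL replicates 1 and 2 (percentiles 41.0 and 45.8). Slc25a22 had the weakest of them, 3.15- and 5.45-fold in CTRL replicates 1 and 2 (percentiles 1.92 and 29.2), near an end of Pidd1. None of the 5 remained CTRL-only with trimmed lists, where 1.06% of all genes were CTRL-only. Without C26 replicate 1 the number of CTRL-only carriers was 14, and the share of all genes was 18.7%, so all genes moved the same way.

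CTRL peaks had the highest median strength at the carriers that also had peaks in both C26 libraries. The 12 carriers with a peak in both C26 libraries had median percentiles of 83.0 in CTRL replicate 1 and 91.6 in CTRL replicate 2. For the 9 with a peak in 1 C26 library the medians were 61.8 and 79.2, and for the 5 with none they were 37.4 and 56.8. Over all genes the same medians were 86.2 and 90.0, 60.3 and 72.2, and 35.4 and 53.8. The order of the carriers was that of all genes. Ranges overlapped between neighboring classes, as in CTRL replicate 1, where they ran from 51.3 to 98.4, 41.5 to 78.6 and 1.92 to 57.8. In each case with a peak in 1 C26 library, that library was C26 replicate 1.

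**Figure D4:**
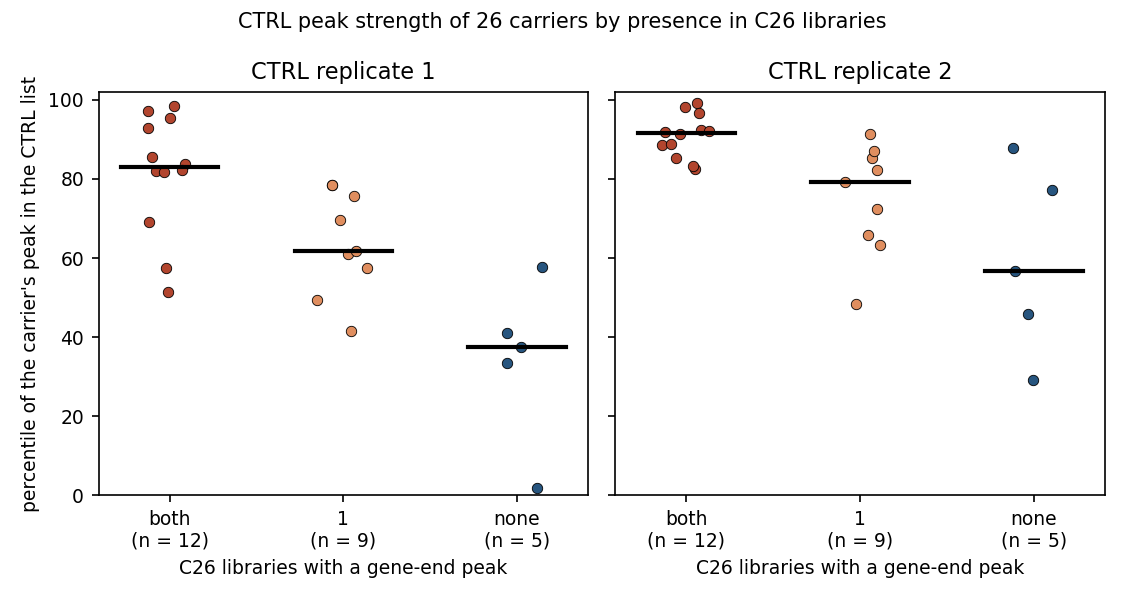
Percentile of the gene-end peak within each CTRL list (y axis, 1 panel per library) for the 26 carriers with a peak in both CTRL libraries, by the number of C26 libraries with a gene-end peak (x axis). Points are carriers and bars are medians, which with 2, 1 and 0 C26 libraries are 83.0, 61.8 and 37.4 in CTRL replicate 1 and 91.6, 79.2 and 56.8 in CTRL replicate 2.

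Within each list, carrier peaks were of similar or somewhat higher strength than gene-end peaks in general. The median percentile of the strongest peak per carrier was 64.9 and 66.9 in C26 replicates 1 and 2, and 69.0 and 83.2 in CTRL replicates 1 and 2. For all genes with a gene-end peak it was 60.5, 60.9, 63.6 and 69.2 in the same order. Carriers at percentile 90 or above were 4 of 24 in C26 replicate 1 (16.7%, against 14.3% of all genes with a peak) and 3 of 13 in C26 replicate 2 (23.1%, against 14.5%). In CTRL replicate 2 they were 9 of 31 (29.0%, against 17.9% of all genes with a peak), and in CTRL replicate 1, 4 of 27 (14.8%, against 15.6%).

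Other genes related to the carriers, listed with earlier results of these data known, were looked at beside them. Members were taken by symbol alone, so this list, which holds the uncoupling protein genes, is not a set outside the carrier family. Of 43 related genes of transport, shuttles and carrier import, 11 had a peak in both C26 libraries (25.6%, 95% Wilson interval 14.9 to 40.2, against 13.0% of all genes) and 31 in both CTRL libraries (72.1%, 57.3 to 83.3, against 32.2%). The enzymes of the malate-aspartate shuttle Got1, Mdh1 and Mdh2 had peaks in all 4 libraries, as did the carriers Slc25a11 and Slc25a12, while Got2 lacked one in C26 replicate 2. Gpd1, the cytosolic enzyme of the glycerophosphate shuttle, had 12.3- and 13.3-fold enrichment in C26 replicates 1 and 2, and 37.9- and 35.9-fold in CTRL replicates 1 and 2, and its mitochondrial partner Gpd2 had peaks in all but C26 replicate 2. In the machinery that inserts carriers into the inner membrane, Timm22 and Timm10b had peaks in all 4 libraries, Timm9 and Timm29 in all but C26 replicate 2, and Timm10 and Agk in the CTRL libraries only. Of the genes of carnitine-linked acyl transfer and transport, Slc25a20 and Cpt1a had no peak, and Cpt1b had one in CTRL replicate 2 alone (5.38-fold). Cpt2 had CTRL peaks only (4.55- and 11.9-fold), and Crat had one in every library but C26 replicate 2. Of the uncoupling protein genes, Ucp1 had no peak, Ucp3 had one in CTRL replicate 2 alone (4.18-fold, percentile 6.81), and Ucp2 had one in C26 replicate 1 (5.21-fold) and CTRL replicate 2 (5.81-fold). The pyruvate carrier subunit Mpc2 had peaks in all 4 libraries and Mpc1 in all but C26 replicate 2.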

How the data were processed

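Phospho-CREB1 ChIP-seq libraries of C26 and CTRL muscle (2 each) were sequenced beside 4 inputs. The submitters' processing notes name Bowtie2 2.3.5.1, MACS2 2.1.4, SAMtools 1.6, FastQC 0.11.2 and Picard, with the build mm10 (GRCm38). Per the labels and the names of the deposited lists, peaks were called in each library against an input of its own group at a q threshold of 0.05, and a further filter named only by an abbreviation is not explained. The deposited lists give the fold enrichment over input (a ratio) at the summit and the −log10 q of each peak, as the authors' peak caller wrote them, and the summit offset. Read counts were not analysed here, so depth is unknown.

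Gene spans came from a RefSeq table of GRCm38.p6 without strand, and strand, starts and sequences from its promoter table. Per gene and library the gene-end peak with the highest −log10 q was kept. The window rule was tested on simulated summits. Analyses used Python 3.11.15, pandas 2.3.3, NumPy 2.4.6, SciPy 1.17.1 and statsmodels 0.14.6. Shares have 95% Wilson intervals for counting error alone, and the group difference an exact permutation test.

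The members and lists were chosen with earlier results of these data known. Genes named with values were the 12 carriers with the highest lower CTRL percentile, CTRL-only carriers, carriers with a C26 peak and 1 CTRL peak, and the muscle carriers Slc25a3, Slc25a4, Slc25a11, Slc25a12 and Slc25a20. The others were named to account for the family, and 1 carrier is counted but not reported here by name. Alternatives were other windows, stricter q floors, trimmed lists, peak overlap, annotated starts only, nearest gene end, each library left out, and pairing by replicate number.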

Additional observations from a re-analysis of the deposited data

How the results depend on the processing

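The per-library difference kept its negative sign under every alternative run. It ranged from −16.0 to −5.0 when 1 library was left out, and with the replicate block, which pairs libraries by label number, it was −10.5 with an exact p of 0.5, the smallest 2 pairs allow. No label says that the numbers pair the mice. With 1 library left out, carriers in all remaining libraries numbered 12 to 21 (12.8% to 24.1% of all genes). Carriers in every C26 library numbered 13 to 24 (13.0% to 26.1%) and in every CTRL library 26 to 31 (32.2% to 40.1%). CTRL-only carriers numbered 5 to 14 (8.07% to 18.7%) and C26-only carriers 0 to 2 (0.0594% to 0.343%). The highest values for all remaining libraries, every C26 library and C26-only carriers came without C26 replicate 2. The 14 came without C26 replicate 1. CTRL-only carriers numbered 9 without CTRL replicate 1 (13.8% of all genes) and C26-only carriers 1 without CTRL replicate 2 (0.192%). The shares of all genes thus moved with the counts of carriers. A −log10 q of at least 10 left 6 carriers in both C26 libraries and 6 in all 4 (5.79% and 5.73% of all genes). Trimmed lists left 13 carriers in both CTRL libraries, 0 CTRL-only and 9 in all 4 (14.6%, 1.06% and 9.69% of all genes). With annotated starts only, which 36 carriers had, 3 were CTRL-only (7.98% of all genes). Assigning each peak to its nearest gene end was chosen after seeing the data. It left 23 carriers in both CTRL and 11 in both C26 libraries (26.6% and 10.1% of all genes). In all 4 libraries it left 10 (9.68% of all genes), without Slc25a11 and Slc25a44. Median percentiles of the carriers in C26 replicate 1 were 60.9 at −log10 q of at least 10, 58.5 with trimmed lists, 59.6 with the nearest gene end, 67.3 and 56.1 with windows of 2000 and 500 bp. In C26 replicate 2 they were 63.0 and 49.6 at −log10 q of at least 10 and 5, and 63.1 with annotated starts and with either window. In CTRL replicates 1 and 2 they were 56.9 and 69.4 at −log10 q of at least 10, and 52.3 and 58.3 with trimmed lists. Percentiles were taken anew within each filtered list. The cause of these shifts was not tested.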

Other observations

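Peaks inside a carrier gene, more than 1000 bp from either end, were found at 8 carriers, all of which also had a gene-end peak. The same counts were not made over all genes, so these do not set carriers apart. At Slc25a39 such a peak lay 74 to 98 bp upstream of the only annotated start in the promoter table, with 5.60-fold enrichment in C26 replicate 1, none in C26 replicate 2, and 8.12- and 12.7-fold in CTRL replicates 1 and 2. Its summits were 1060 to 1084 bp from the gene end, so they were not counted as gene-end peaks, and the stronger peak of that gene lay nearer the end of the span. At Slc25a22 an internal peak in CTRL replicate 2 alone (7.80-fold, chromosome 7, 141435171 to 141435591) lay 47 bp upstream of an internal annotated start, and was stronger than the gene-end peak of the same library (5.45-fold). Slc25a4 had a peak inside the gene in both CTRL libraries (6.19- and 6.69-fold) and in neither C26 library. Slc25a12 had a weak one there in both CTRL libraries (5.44- and 4.01-fold). Internal peaks were also present at Slc25a25, Slc25a26 and Slc25a33.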
